A study of Mus musculus with 2 samples.

Results

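The Ly6 genes encode small surface proteins of the Ly6/uPAR family, and the 9 genes asked for were Ly6i, Ly6a, Ly6c1, Ly6c2, Ly6d, Ly6e, Ly6f, Ly6g and Ly6k. Members were taken as the genes whose platform symbol is on that list, and 7 of the 9, each with 1 platform identifier, were found among 19505 genes. Ly6a and Ly6g were not analysed here. The list was chosen from earlier values of this same contrast, in which Ly6i stood out, so every difference below is a description of these arrays and none is a test. The smoke sample came from mice exposed to smoke for 3 months and the air sample from control mice after 3 months of air. Both were lung cells sorted as SPC/GFP-positive and EpCAM-positive, that is, by a green fluorescent reporter named for the surfactant protein that type 2 alveolar cells secrete, and by an epithelial surface protein. RNA was measured on Clariom S Mouse arrays, 1 per group. Strain, age, sex and number of mice, pooling of animals and the construct behind the reporter were not stated in the labels.

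Ly6 proteins are built on a compact three-finger fold held by disulfide bonds, and most are tied to the outer face of the cell membrane by a glycosylphosphatidylinositol (GPI) anchor. In the mouse many of their genes lie side by side on chromosome 15, where gene duplication gave close copies. Ly6a (the stem cell antigen Sca-1), Ly6c and Ly6g are widely used to recognise stem cells, monocytes and granulocytes, and several members are induced by interferons in immune and epithelial cells.

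The deposited value of each identifier was read as a log2 signal, with an upper limit of 19.93 that 25 identifiers shared on the smoke array and 26 on the air array. The median signal was 4.53 on the smoke array and 4.61 on the air array, and across identifiers the arrays correlated with Pearson's r = 0.989, which describes 2 arrays and no replicates. With 1 array per group no difference has an SD, a standard error or a p-value, and the number of arrays limits the precision. Smoke exposure cannot be told apart from other differences between the 2 samples, such as animals, sort, array run or time of collection. The spread of differences among the 200 genes nearest in mean level, given as a robust SD (a scaled median absolute deviation), stands in as a yardstick; it holds real differences as well as error. A gene is called higher below where smoke minus air reached 1 on the log2 scale (2-fold) and lower where it reached -1, provided that at least 1 of its signals was 4.57 or more, the median of all values (the level filter). Sftpc, the gene the SPC reporter is named for, had the maximal value of 19.93 on both arrays. Epcam was at 10.92 on the smoke array and 11.09 on the air array, so RNA signal of both genes was above the level filter in both samples. The reporter itself and the EpCAM protein were not read here.

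1 Ly6 gene, Ly6i, was far higher in the smoke sample, and the other measurable members lay within 2-fold. The 6 members with a measurable difference had log2 differences from -0.35 to 3.55. Of 5 members above the level filter, 1 was called higher and 0 were called lower. The background shares over all 10419 genes above the filter were 3.94% called higher and 2.48% called lower; because the list was chosen on this contrast, nothing is read from the members' share. The median log2 difference was 0.42 over the 6 measurable members and 0.37 over the 5 without Ly6i, against -0.02 over 19489 measurable genes. Over the 5 members above the filter the median was also 0.37, against 0.06 over all 10419 genes above it. 4 of the 6 had a difference above 0 and 2 below it. Over all 19489 measurable genes, 9302 were above 0 and 9971 below, the counts to set beside those of the lists further down.

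**Figure D1:**
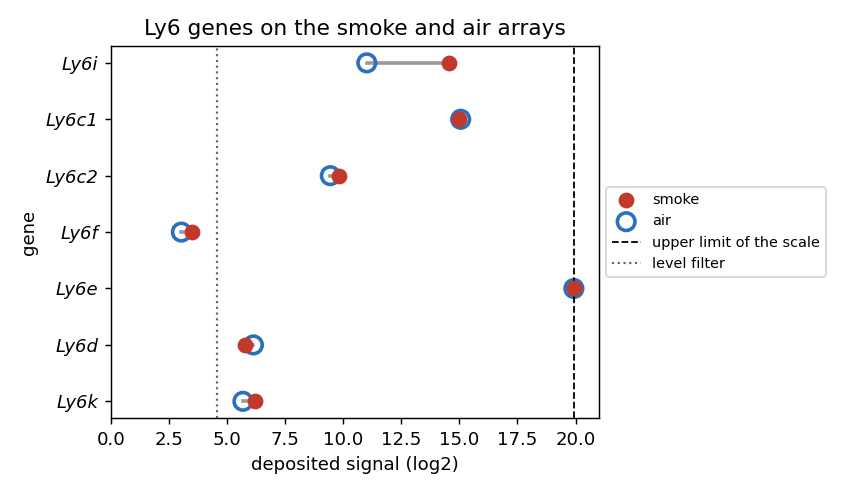
Deposited log2 signal (x axis) of the 7 measured Ly6 genes (y axis) on the smoke array (filled) and the air array (open), joined by a grey line. Only Ly6i has widely separated points, at 14.57 on the smoke array and 11.02 on the air array, while Ly6e sits at the scale's limit of 19.93 with both points and Ly6f lies below the level filter of 4.57.

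Ly6i encodes a GPI-anchored protein described on mouse haematopoietic cells. Its log2 signal was 14.57 on the smoke array and 11.02 on the air array, a difference of 3.55, or 11.7-fold on the deposited scale. Both signals were far above the level filter and well under the upper limit, so neither end of the scale bounded this difference. It ranked 5th among the 10419 genes above the filter; the 4 genes with a larger positive difference were Dbp, Cfb, Nr1d1 and Vnn1. Among 403 genes of chromosome 15 above the filter it had the largest positive difference.

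Around Ly6i, the 200 genes nearest in mean level centred on a log2 difference of 0.09 (median) with a robust SD of 0.42. Ly6i exceeded that median by 3.46. Of these 200 genes, 199 had a smaller difference than Ly6i and 1 had a larger one, Nr1d1 at 4.35, the gene of the clock repressor REV-ERB alpha. The next was at 2.50, and 7 of the 200 had differences of 1 or more.

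**Figure D2:**
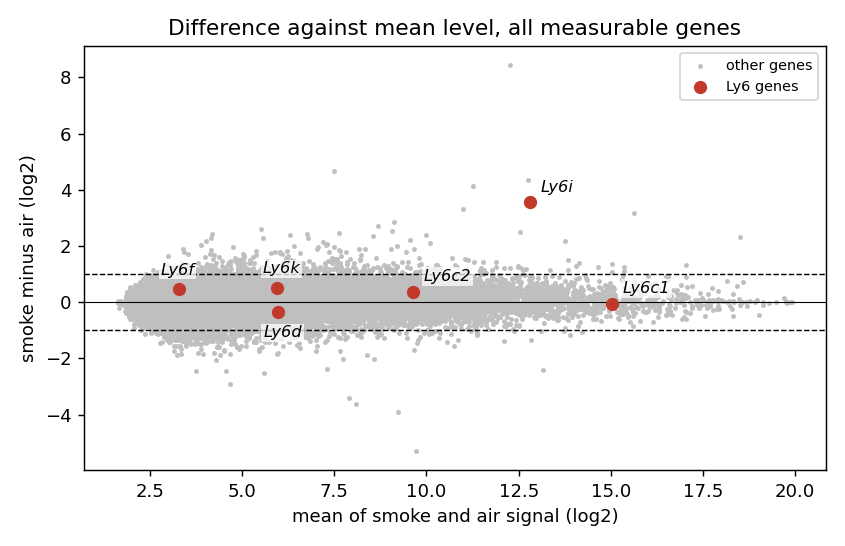
Log2 difference, smoke minus air (y axis), against the mean of both log2 signals (x axis) for 19489 measurable genes, with the 6 measurable Ly6 genes in red and dashed lines at 2-fold. Ly6i lies at 3.55, apart from the band of genes at its level, and the other 5 members lie inside it, from -0.35 to 0.51.

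Genes whose pair of signals lay nearest to that of Ly6i were sought by Euclidean distance over the 2 arrays, which is a description of 2 points per gene. The nearest was Nr1d1, at 14.92 on the smoke array and 10.57 on the air array, a distance of 0.57. Csf1, the gene of the macrophage growth factor M-CSF, was at 13.79 on the smoke array and 11.29 on the air array, a distance of 0.83. Rbpjl (a transcription factor gene), Slc6a20a (an amino acid transporter gene) and B4galnt1 (a ganglioside synthesis enzyme gene) followed at distances of 1.65 to 1.68, and their log2 differences of 1.29, 2.18 and 1.23 were smaller than that of Ly6i.

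Ly6c1 and Ly6c2 encode the near-identical proteins that Ly6C antibodies bind; Ly6c2 is the form of inflammatory monocytes, and Ly6c1 is also made by endothelial cells. Ly6c1 had a log2 signal of 15.0 on the smoke array and 15.06 on the air array, a difference of -0.06. Ly6c2 was at 9.82 on the smoke array and 9.45 on the air array, a difference of 0.37, which is 1.29-fold. Both differences were smaller than the robust SD of genes of like level, 0.36 for Ly6c1 and 0.47 for Ly6c2. Of the 200 genes of like level, 76 had a smaller difference than Ly6c1 and 141 a smaller one than Ly6c2. Whether the array's probes separate these copies from each other, or from Ly6i and Ly6a, is not stated in the labels, and the values of Ly6i, Ly6c1 and Ly6c2 are uncertain to that extent.

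Ly6f, a further gene of the same group of copies, was below the level filter on both arrays. Its log2 signal was 3.51 on the smoke array and 3.04 on the air array. The difference of 0.47 compares with a median of -0.14 and a robust SD of 0.42 in genes of like level, of which 177 of 200 had a smaller difference. It was 0.18 after 16 was added to the linear signals, which damps low values.

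RefSeq promoter sequences (build GRCm38.p6) were at hand for 4 of the 9 members, and the 3 that were also measured are shown to let a reader see how alike the copies are. Each runs from 250 bases before to 50 bases after the most upstream listed start, 5′ to 3′ on the gene's strand; capitals mark the runs of at least 12 bases that occur in all 3. Ly6c1 lies at chr15:75048788-75049087 on the minus strand, Ly6c2 at chr15:75111922-75112221 on the minus strand and Ly6f at chr15:75268171-75268470 on the plus strand.
Ly6c1: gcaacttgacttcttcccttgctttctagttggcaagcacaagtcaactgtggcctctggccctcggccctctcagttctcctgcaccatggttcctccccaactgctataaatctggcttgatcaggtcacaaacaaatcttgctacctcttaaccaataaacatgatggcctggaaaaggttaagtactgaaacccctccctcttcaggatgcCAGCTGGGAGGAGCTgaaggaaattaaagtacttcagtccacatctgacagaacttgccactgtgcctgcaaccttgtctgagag
Ly6c2: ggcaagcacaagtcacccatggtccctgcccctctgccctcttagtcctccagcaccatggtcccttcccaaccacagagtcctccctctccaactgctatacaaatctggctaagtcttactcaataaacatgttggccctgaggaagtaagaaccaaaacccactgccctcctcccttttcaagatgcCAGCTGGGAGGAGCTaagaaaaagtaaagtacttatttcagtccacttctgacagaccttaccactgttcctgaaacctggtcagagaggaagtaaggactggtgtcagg
Ly6f: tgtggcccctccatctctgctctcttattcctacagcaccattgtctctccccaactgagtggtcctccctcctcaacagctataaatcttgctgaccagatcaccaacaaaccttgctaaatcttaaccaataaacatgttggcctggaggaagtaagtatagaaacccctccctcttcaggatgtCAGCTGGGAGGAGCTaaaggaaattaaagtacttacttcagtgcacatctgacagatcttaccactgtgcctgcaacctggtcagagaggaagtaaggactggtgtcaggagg
In a pairwise alignment Ly6c1 and Ly6f shared 215 of 250 aligned bases (86.0%). Ly6c2 and Ly6f shared 229 of 274 (83.6%), and Ly6c1 and Ly6c2 shared 208 of 266 (78.2%). The 1 capital run, of 15 bases, occurred in 6 of 32851 promoter windows, which belong to 4 genes: Ly6c1, Ly6c2, Ly6f and Ly6a2. The windows were searched on both strands for the core bound by interferon regulatory factors (AANNGAAA). Ly6f held 1 match of AANNGAAA, on its own strand (AAAGGAAA), and these letters occurred in 23.9% of all promoter windows. Ly6c1 and Ly6c2 held 0 matches. A match is no evidence of binding, and no match says only that these letters are not in these windows. Ly6i had no promoter window at hand, so neither the shared run nor the motif search bears on it.

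Ly6e is an interferon-inducible member with a broad tissue range; in the mouse its protein is the receptor for the placental fusion protein syncytin-A, and it restricts coronavirus entry. Ly6e had the maximal value, 19.93, on the smoke array and on the air array, so no difference could be measured for it.

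Ly6d marks early B-lineage cells and keratinocytes, and Ly6k is a germ cell gene needed for sperm function. Ly6d was at 5.79 on the smoke array and 6.14 on the air array, a log2 difference of -0.35, the lowest of the members. Of the 200 genes of like level, 43 had a smaller difference and their robust SD was 0.51. Ly6k was at 6.20 on the smoke array and 5.69 on the air array, a difference of 0.51. Of its 200 genes of like level, 163 had a smaller difference, with a robust SD of 0.47. Ly6d was thus inside the spread of its level and Ly6k lay 0.43 above the median of its level, also inside that spread.

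**Figure D3:**
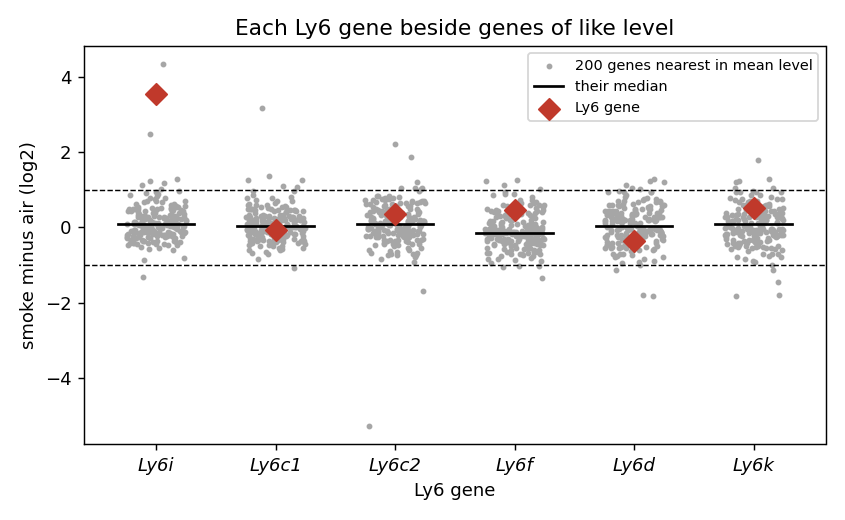
Log2 difference, smoke minus air (y axis), of each of the 6 measurable Ly6 genes (red diamonds) beside the 200 genes nearest to it in mean level (grey points, spread sideways to be visible; black bars are medians; dashed lines mark 2-fold). Ly6i stands above 199 of its 200 genes, and Ly6c1, Ly6c2, Ly6d, Ly6f and Ly6k lie among theirs.

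The members lie in 1 cluster on chromosome 15, and its gene order was taken from RefSeq. The stretch from Ly6d to Ly6f with 5 protein-coding genes on each side holds 27 protein-coding genes, of which 18 were measured. Ly6i stands between Ly6e and Ly6a in this order, with Ly6c1 the next measured gene beyond Ly6a. The 11 measured genes of the stretch that are no members had log2 differences from -0.45 to 0.36 with a median of -0.06. 2 of the 11 were above the level filter. Lynx1, whose GPI-anchored product modulates nicotinic acetylcholine receptors, was at 6.96 on the smoke array and 6.60 on the air array. Them6, a gene of a thioesterase family member, was at 6.77 on the smoke array and 7.22 on the air array. In this stretch Ly6i was the 1 measured gene past 2-fold, with measured neighbours at -0.06 (Ly6c1) and at the upper limit (Ly6e).

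**Figure D4:**
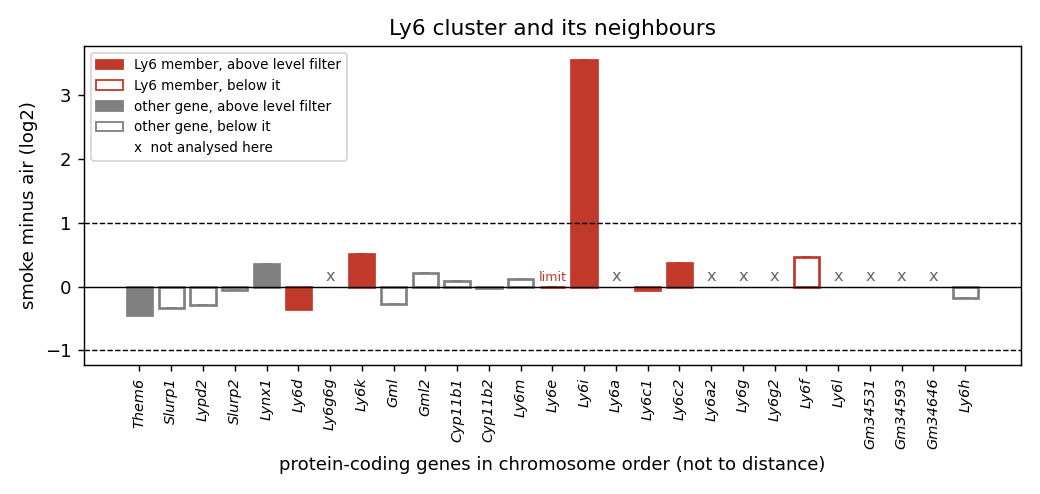
Log2 difference, smoke minus air (y axis), of the 27 protein-coding genes around the Ly6 cluster in chromosome order (x axis, order only); red bars are members, open bars genes below the level filter on both arrays, and a cross a gene not analysed here. The bar of Ly6i reaches 3.55, Ly6e has no bar because both its values are at the limit, and the 11 measured genes that are no members stay between -0.45 and 0.36.

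The wider Ly6/uPAR family was examined in 35 further measured genes. Of these, 26 were below the level filter on both arrays. Among the 9 above it, 2 were called higher and 0 lower. For this and each list below, the shares over all 10419 genes above the filter were 3.94% called higher and 2.48% called lower. Lypd6b, whose product acts on nicotinic receptors, was at 6.42 on the smoke array and 5.29 on the air array, 2.19-fold higher. Ly6g6c, a Ly6 gene of the major histocompatibility region, was at 5.13 on the smoke array and 4.11 on the air array, 2.03-fold higher, and reached the filter on the smoke array alone. The median log2 difference was -0.10 over the 35 genes and 0.36 over the 9, so it depends on which members are counted.

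Genes of GPI anchor synthesis and attachment, on which Ly6 proteins depend to reach the surface, had a median log2 difference of 0.26 over 26 measured genes, with 18 above 0 and 8 below. Of 23 above the filter, 1 was called higher and 0 lower. That gene was Pgap3, which remodels the lipid of the anchor, at 7.21 on the smoke array and 6.14 on the air array.

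Interferon-stimulated genes, a group to which Ly6e and Ly6a belong by their known regulation, had a median log2 difference of 0.10 over 41 measured genes; 24 were above 0 and 16 below. Of 25 above the filter, 2 were called higher and 0 lower. They were Irf7, which drives interferon gene transcription, at 5.54 on the smoke array and 4.11 on the air array, and Rtp4, at 5.90 on the smoke array and 4.85 on the air array. Irf7 reached the filter on the smoke array alone. The part of an interferon response in the Ly6i difference was not tested.

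Cell types outside the sort that are known to carry Ly6 proteins were read from their markers. In bulk samples, a different number of cells of a type and a different amount of RNA per cell cannot be told apart. Of 16 neutrophil markers, 11 had a difference above 0, with a median log2 difference of 0.33; 1 of 8 above the filter was called higher, Il1r2, a decoy receptor gene for interleukin 1, at 5.61 on the smoke array and 4.49 on the air array, which reached the filter on the smoke array alone. The log2 of the summed signal of the neutrophil markers was 16.21 on the smoke array and 16.43 on the air array. This sum is almost wholly that of Hdc, the histidine decarboxylase gene (16.19 on the smoke array and 16.42 on the air array). Hdc was far brighter than the rest of the list, and which cells gave its signal was not tested. Without Hdc, a setting chosen after seeing the data, the other 15 markers summed to 9.88 on the smoke array and 9.40 on the air array, which turns the direction. Csf3r, the receptor of the granulocyte growth factor G-CSF, was at 8.72 on the smoke array and 8.12 on the air array. The part of these cells in the Ly6i difference was not tested.

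Of 14 monocyte and macrophage markers, 6 had a difference above 0 and 8 below, with a median of -0.16. The log2 of their summed signal was 17.93 on the smoke array and 17.92 on the air array, almost wholly that of the lysozyme gene Lyz1 (17.91 on the smoke array and 17.90 on the air array). Lyz1 was far brighter than the rest of this list. Lyz2, a second lysozyme gene listed below among alveolar type 2 markers, had the maximal value on both arrays. Which cells gave the Lyz1 signal was not tested. Without Lyz1, again a setting chosen after seeing the data, the other 13 markers summed to 11.50 on the smoke array and 11.92 on the air array. The brightest of the 13 on the air array was Chil3, a chitinase-like gene of macrophages (9.87 on the smoke array and 11.27 on the air array). The lower sum on the smoke array therefore leans on 1 gene. Ccr2, the chemokine receptor of the monocytes that carry Ly6C, was at 4.22 on the smoke array, below the filter, and 4.80 on the air array. Among 7 markers above the filter, Cd14, a lipopolysaccharide co-receptor gene, was 2.08-fold higher and Chil3 2.64-fold lower. Of 14 lymphocyte markers, 8 were above 0 and 6 below, with a median of 0.03, a log2 summed signal of 9.38 on the smoke array and 9.34 on the air array, and 1 of 6 above the filter called higher, the T cell receptor subunit gene Cd3d (4.66 on the smoke array and 3.63 on the air array), which also reached the filter on the smoke array alone. Ptprc, which encodes the leukocyte antigen CD45, stood at 7.59 on the smoke array and 7.64 on the air array. The part of monocytes, macrophages and lymphocytes in the Ly6i and Ly6c2 differences was not tested.

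Endothelial markers, which bear on Ly6c1, had a median log2 difference of -0.41 over 19 measured genes, with 15 below 0 and 4 above. Of 18 above the filter, 3 were called lower and 0 higher, where the shares over all genes above it were 2.48% lower and 3.94% higher. The 3 were the transcription factor gene Sox18, at 5.75 on the smoke array and 7.39 on the air array, the tight junction gene Cldn5 (a log2 difference of -1.17) and Eng, which encodes endoglin (-1.03). Their log2 summed signal was 14.77 on the smoke array and 15.39 on the air array, and the defining genes Pecam1 and Cdh5 differed by -0.73 and -0.48. Cdh5 was at 13.86 on the smoke array and 14.34 on the air array. The Ly6c1 difference was -0.06, and those of the 19 markers ran from -1.64 (Sox18) to 0.66 (Esam). The part of endothelial RNA in the Ly6c1 difference was not tested. Basal and squamous epithelial markers, which bear on Ly6d, had a median of -0.10 over 12 genes, and 11 of the 12 were below the filter, among them the basal cell genes Krt5 (2.68 on the smoke array and 2.50 on the air array) and Trp63 (3.39 on the smoke array and 2.57 on the air array). The log2 summed signal of the 12 genes was 8.52 on the smoke array and 8.65 on the air array. Most of this sum is that of Pdpn, the 1 gene of the list above the filter (8.11 on the smoke array and 8.27 on the air array). The sum therefore leans on 1 gene and says little of the 11 below the filter.

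Among genes of the sorted cells themselves, 8 of 16 alveolar type 2 markers had the maximal value on both arrays and the other 8 had a median log2 difference of 0.05, with Chil1, a chitinase-like secreted protein, 4.99-fold higher. The 7 epithelial markers had a median of -0.06, with Krt8, a keratin of simple epithelium, 2.16-fold lower. The median over 11 fibroblast and smooth muscle genes was -0.23, with 4 above 0 and 7 below, and it was 0.085 over the 8 above the filter. Of these 8, 2 were called lower and 0 higher. Col1a1, a collagen chain gene, was 2.27-fold lower, and Pdgfrb, a growth factor receptor gene, was at 5.09 on the smoke array and 6.09 on the air array. The log2 summed signal of the 11 genes was 9.10 on the smoke array and 9.11 on the air array.

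**Figure D5:**
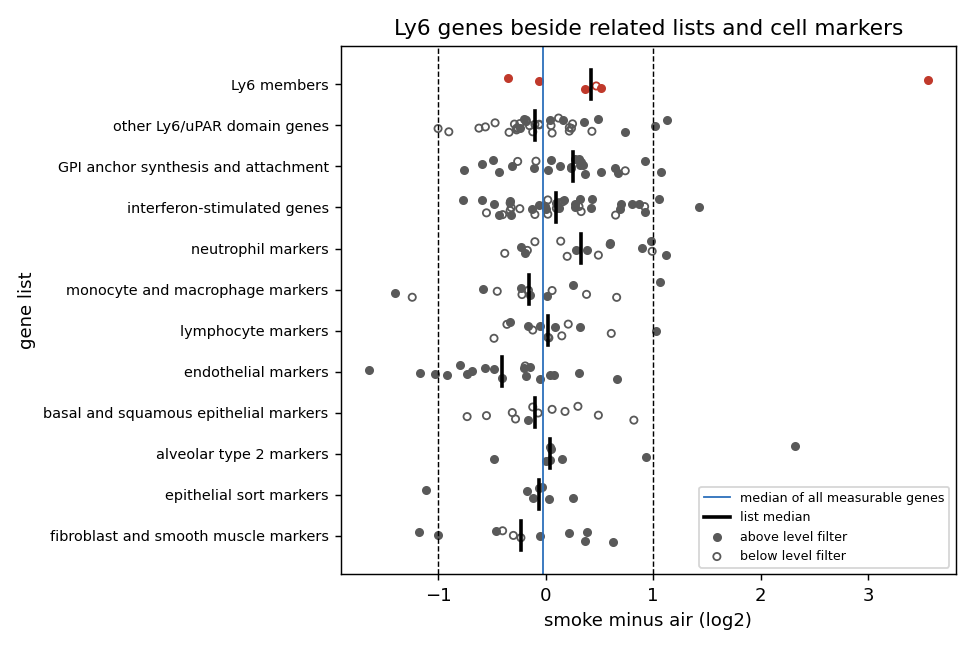
Log2 difference, smoke minus air (x axis), of the Ly6 members (red, top) and of 11 gene lists (y axis); filled points are above the level filter, open points below it, black bars are list medians and the blue line is the median of all measurable genes, -0.02. Ly6i at 3.55 lies to the right of the genes shown in all the other lists.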

How the data were processed

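Expression was measured by Clariom S Mouse array in 1 smoke and 1 air sample of sorted lung cells. Per the labels' protocols, biotinylated cDNA was made from 100 ng of total RNA. The table the authors deposited holds 1 log2 signal per identifier and array, a unit inferred from its range, 1.55 to 19.93. Scale and centring are unstated; the sample titles give the direction of smoke minus air. Per the submitters' processing notes Transcriptome Analysis Console was used, with no version or settings. No source used here states the background correction, normalization or genome build.

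Of 22206 identifiers, 19572 had 1 gene symbol and 2634 are unnamed here. All 19572 matched RefSeq (GRCm38.p6) by Entrez number, which changed 0 symbols. The 55 genes with several identifiers were averaged, giving 19505 genes, of which 16 had the maximal value in both samples and give no difference. No p-value was possible. Members, gene lists and the rule for naming genes were chosen with earlier results of these data known. The rule named all members, up to 3 genes per direction past 2-fold in each list (or the largest difference), set defining markers, the 5 genes nearest to Ly6i and the cluster's neighbours. Other genes named, such as those ranked above Ly6i, were picked with their values known. The call rule was checked on simulated data. Alternatives were other filters, 1.5-fold and 3-fold, quantile normalization, centring on the median or by level (running median over 401 genes), a linear offset of 16 and 100 or 400 genes of like level. Python 3.11.15, numpy 2.4.6 and pandas 2.3.3 were used.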

Additional observations from a re-analysis of the deposited data

How the results depend on the processing

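Each condition has 1 array, so no alternative leaves out a replicate, and no paired analysis was possible because each group has a single sample. Ly6i remained the 1 member past the fold threshold and 0 members were past it on the lower side under every filter, threshold and scaling tried. Its log2 difference ran from 3.46 (centring by level) to 3.57 (centring on the median), and it lay above 99.0% of 100 and 99.5% of 400 genes of like level. The differences of the other 5 measurable members kept their sign under the 4 alternatives of scaling and offset and moved by less than the robust SD of genes of like level.

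The counts over all genes moved by more than 1.5 times under some alternatives. Against 410 higher and 258 lower, they were 212 and 74 with the filter at the 75th percentile, 1514 and 958 at 1.5-fold, 66 and 35 at 3-fold, and 243 and 102 with the offset; with no filter the lower count was 407. The share of calls that were higher was 61.4%, and ran from 53.4% with no filter to 74.1% with the filter at the 75th percentile. List medians that moved were those of the other Ly6/uPAR genes (-0.01 under quantile normalization, 0.02 centred by level, 0.36 over members above the filter), interferon-stimulated genes (0.17 above the filter), neutrophil markers (0.19 with the offset, 0.49 above the filter), endothelial markers (-0.53 under quantile normalization, -0.52 centred by level) and fibroblast markers (-0.0673 with the offset, 0.085 above the filter). The cause of these shifts was not tested. Low signals, with no detection calls used here, limit what can be said of Ly6f, and the upper limit of the scale leaves Ly6e without a measurable difference.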
